A study of Mus musculus with 3 samples.

Results

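The genes described here are 10 genes of energy restriction, glucocorticoid response and glucose uptake, out of 27179 genes counted by RNA sequencing. The cells were mouse pro-B cells, with or without the B-lineage transcription factor Pax5. They were taken by name: Nr3c1, Txnip, Cnr2, Stk11, Prkaa1, Insr, Slc2a1, Slc2a3, Slc2a6 and Hk2, and all 10 were found by their Entrez numbers and passed the filter on low counts. There were 2 Pax5-/- samples from male C57BL/6 mice, described as prepared independently, and 1 wild-type sample from a female C57BL/6 mouse. All were B220+ bone marrow cells (B220 is a B-lineage form of CD45) expanded on OP9 cells, a stromal feeder line. For the Pax5-/- samples an IgM- fraction was taken at day 7 by immunomagnetic depletion, whereas no day and no depletion step are given for the wild type. Sex, the stated depletion, any difference in days of culture and genotype cannot be told apart in this design. The labels do not say which part of Pax5 the allele lacks.

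Glucose enters a lymphocyte through transporters of the Slc2a (GLUT) family and is trapped by hexokinase. When energy runs short, the kinase LKB1 (encoded by Stk11) activates AMPK (catalytic subunit Prkaa1), while Txnip restrains glucose uptake and the glucocorticoid receptor (Nr3c1) can restrict metabolism and survival. In B-lymphoid leukaemia, PAX5 has been described as a gatekeeper of glucose and energy supply that activates NR3C1, TXNIP and CNR2 and represses genes of glucose uptake. The comparison asks whether these genes differ between Pax5-/- and wild-type pro-B cells.

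The promoter letters of 3 of the genes are shown because they are the brake on glucose uptake and the pair of uptake genes that were lower in both Pax5-/- samples. Each is the 250 bases before a RefSeq start site (GRCm38.p6, the assembly mm10 names), read 5′ to 3′ on the gene's strand. Capitals mark the CCAAT box (CCAAT, on either strand) and, in Txnip, a pair of CACGAG letters spaced by 5 bases, the form known from the carbohydrate response element through which glucose induces this gene. The sites are chr3:96557707-96557956 on the + strand for Txnip, chr4:119108495-119108744 on the + strand for Slc2a1 and chr6:82774455-82774704 on the - strand for Hk2.
Txnip: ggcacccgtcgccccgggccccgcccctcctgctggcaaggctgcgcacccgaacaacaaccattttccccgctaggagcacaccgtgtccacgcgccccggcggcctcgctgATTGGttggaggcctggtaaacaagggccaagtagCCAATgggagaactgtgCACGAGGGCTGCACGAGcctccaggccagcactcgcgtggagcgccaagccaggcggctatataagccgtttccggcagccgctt
Slc2a1: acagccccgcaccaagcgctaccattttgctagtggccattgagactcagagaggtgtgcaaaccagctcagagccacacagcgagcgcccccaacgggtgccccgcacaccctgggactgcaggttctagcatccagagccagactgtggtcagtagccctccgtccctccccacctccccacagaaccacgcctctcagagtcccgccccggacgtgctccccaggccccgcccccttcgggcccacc
Hk2: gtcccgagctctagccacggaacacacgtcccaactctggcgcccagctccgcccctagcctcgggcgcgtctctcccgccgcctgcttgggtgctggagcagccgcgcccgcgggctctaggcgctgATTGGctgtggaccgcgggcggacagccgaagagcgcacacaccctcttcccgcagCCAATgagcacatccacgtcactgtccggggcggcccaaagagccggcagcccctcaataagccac
The Txnip window held 2 CCAAT boxes, 137 and 102 bases before the start, and the paired CACGAG began 85 bases before it. Hk2 held 2 CCAAT boxes, 122 and 66 bases before its start, and Slc2a1 held none of the motifs searched. Windows of 7 of the 10 genes were searched, 8 windows in all. Of the 8, 5 held CCAAT, against 33.8% of 32851 RefSeq promoters of the same length. Cnr2 was counted with both of its windows. The 50 bases after the Stk11 window and after both Cnr2 windows matched no GENCODE transcript of these genes, so their start sites are uncertain. None of the 8 held the E-box CACGTG, found in 6.02% of promoters, the cAMP response element TGACGTCA (1.55%) or the palindromic glucocorticoid response element (0.0304%), each searched on both strands. The paired CACGAG was added after the Txnip letters were seen and matched 1 of all 32851 promoters, so its presence in Txnip is a description only. Slc2a3, Insr and Nr3c1 are named without a sequence. Their promoters were not among the 8 windows, so the motif counts say nothing about these genes, the glucocorticoid receptor gene included.

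Of the 10 genes, 1 was called different between the genotypes, Slc2a3, which rose in Pax5-/-, and 9 were not called. Across all 11783 tested genes, 2130 (18.1%) were called, 9.53% higher and 8.55% lower, at a Benjamini-Hochberg adjusted p under 0.05 in edgeR's quasi-likelihood test. An unadjusted p under 0.05 was reached by 5 of the 10 genes and by 36% of all tested genes. The median size of the log2 fold change was 0.516 for the 10 genes and 0.408 for all tested genes. Both Pax5-/- samples lay above the wild type for 4 of the genes, both lay below it for 4, and the groups overlapped for 2. For comparison, 85.2% of all tested genes had both Pax5-/- samples on the same side of the wild type. Only the 2 Pax5-/- samples show a spread, and the fit lets the single wild type vary by the same amount. The p-values rest on this spread moderated by that of the other tested genes, with 3.15 prior against 1 residual degree of freedom. Nothing in the labels says how many animals stood behind each sample. In bulk samples, fewer cells of a type and less RNA per cell cannot be told apart.

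**Figure D1:**
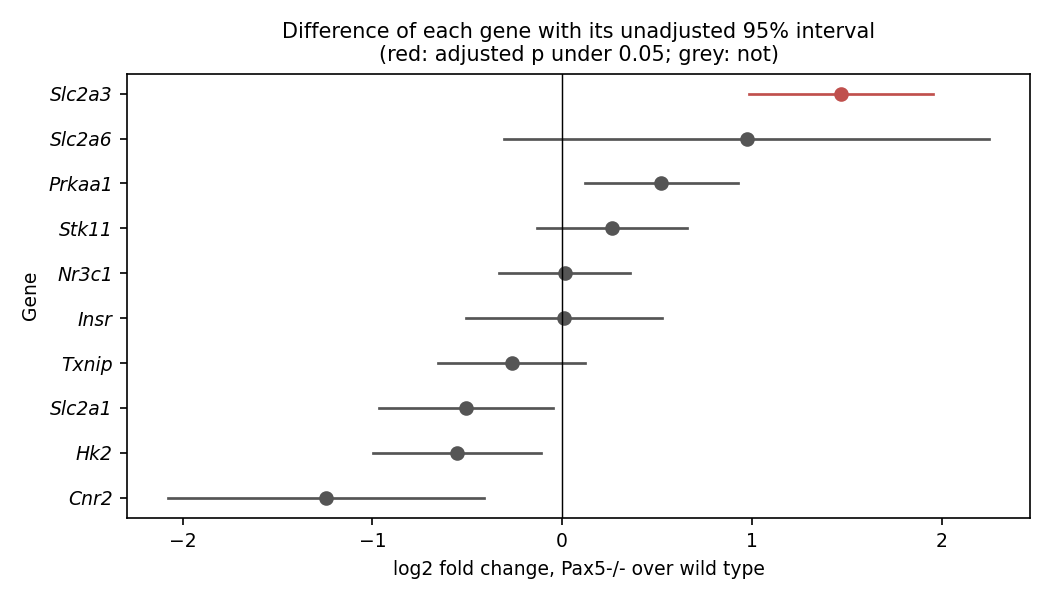
Log2 fold change of each of the 10 genes, Pax5-/- (n = 2) over wild type (n = 1), on the horizontal axis. Points are fitted values and lines their unadjusted 95% intervals. Slc2a3, in red, was called at 1.47, and the other 9, in grey, were not.

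Totals ran from 6487846 to 6697879 counts per library, and 3 counts corresponded to 0.441 to 0.468 CPM (library-relative counts after TMM scaling). Pax5 itself, the check of the labels, was at 417 and 551 counts in Pax5-/- against 1601 (log2 fold change -1.78, adjusted p = 0.0107, lost at an assumed biological coefficient of variation of 0.4). Of the pro-B cell markers, chosen for naming after their values were seen, Rag1, a subunit of the V(D)J recombinase, had 3737 and 4621 counts in Pax5-/- against 2237. Vpreb1, part of the surrogate light chain, had 1242 and 1823 counts against 3427. Cd79a, a signalling chain of the B cell receptor, had 513 and 740 counts against 6434. Of 14 myeloid markers, 7, 8 and 2 were at 0 in the Pax5-/- samples and the wild type, and their summed level was 29.9 and 50.2 against 90.5 CPM. S100a8, S100a9 and Ngp were at 0 in both Pax5-/- samples, and without these 3 the sum was 29.9 and 50.2 against 31.7 CPM. Lyz2 in the same list rose from 28 counts to 92 and 128 (log2 fold change 1.91, SE 0.33, adjusted p = 0.0314). Lyz2 was named after its value was seen, and limma-voom and an assumed coefficient of 0.4 did not call it. Of 12 T and NK markers, 5, 6 and 3 were at 0, and the sum was 22.4 and 32.9 against 5.30 CPM, most of it Nkg7 in Pax5-/-. Without Nkg7 the sum was 4.63 and 2.20 against 4.52 CPM, and Cd3e, Cd3d and Cd3g had 0 to 2 counts in each sample. S100a8, S100a9, Ngp and Nkg7 were left out because they carried the difference, a choice made after their values were seen. Stromal and adipocyte markers, 13 in all, summed to 11.1 and 12.3 against 31.0 CPM, with Dcn and Lum at 0 everywhere. Of 5 tested, 0 were called in edgeR's quasi-likelihood test and 3 had an unadjusted p under 0.05. Counts were 11 and 26 against 76 for Fn1, 18 and 7 against 60 for Cxcl12 and 12 and 6 against 23 for Col1a1. Col1a2 had 3 and 11 against 17, whereas Pdgfrb had 15 and 18 against 4. The part of the OP9 feeder cells in these counts was not tested. Of the erythroid and megakaryocyte markers, Car1 and Pf4 were at 0 in all samples. Their sum was 426 and 433 against 605 CPM, nearly all of it Tfrc, which dividing cells share. Tfrc, the only one tested, fell from 3866 counts to 2736 and 2925 (log2 fold change -0.50, adjusted p = 0.0432 in edgeR's quasi-likelihood test). That call was lost with library size alone, with 10 counts required in every sample, in the likelihood ratio test and at an assumed coefficient of 0.4. Gp9 had 8 and 8 counts against 1.

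Gene levels can be compared with one another only per length, so they are given as RPKM (CPM per kilobase of the deposited gene length). In the wild type the order was Stk11 at 49.1 RPKM, Txnip at 40.8, Nr3c1 at 27.2, Slc2a1 at 11.9, Prkaa1 at 11.3, Hk2 at 9.96, Slc2a3 at 3.19, Cnr2 at 2.91, Insr at 2.57 and Slc2a6 at 0.876. With 1 sample there is no spread over samples, and exact 95% Poisson intervals, which cover counting error only, overlapped between Slc2a1, Prkaa1 and Hk2 and between Slc2a3, Cnr2 and Insr. The intervals of Stk11 (44.9 to 53.5 RPKM) and Txnip (37.9 to 43.8 RPKM) did not overlap.

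In Pax5-/- the top of the order was shared with the wild type: Stk11 at 58.9 ± 0.48 RPKM (SD, n = 2), Txnip at 33.9 ± 0.96 and Nr3c1 at 27.5 ± 0.55. Below them came Prkaa1 at 16.3 ± 0.002, Slc2a3 at 8.86 ± 0.095, Slc2a1 at 8.39 ± 0.079 and Hk2 at 6.78 ± 0.70. Insr at 2.59 ± 0.23, Slc2a6 at 1.73 ± 0.11 and Cnr2 at 1.22 ± 0.15 RPKM closed it. No neighbours in that order overlapped between the 2 samples, which is a small number to set a spread. Slc2a3 stood above Slc2a1 in both Pax5-/- samples and below it in the wild type, and Cnr2 moved from above Insr and Slc2a6 to below them.

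**Figure D2:**
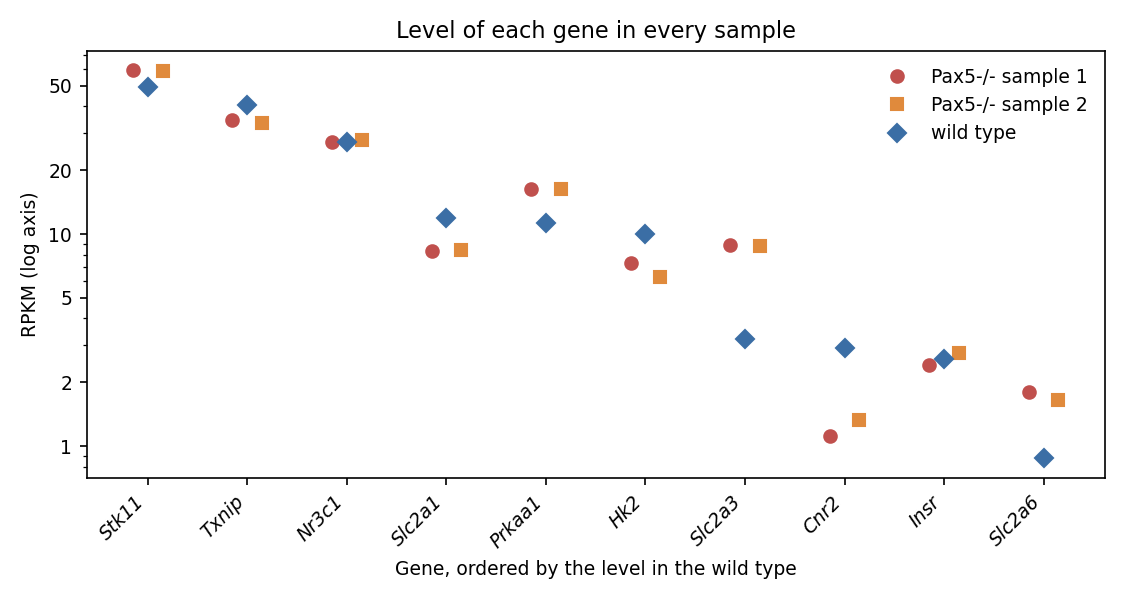
Level of each gene in RPKM on a log axis, ordered by the wild type, with 1 point per sample (circles and squares, Pax5-/- samples 1 and 2; diamonds, wild type). Slc2a3 lies at 8.93 and 8.79 RPKM in Pax5-/- and 3.19 RPKM in the wild type, while the 3 points of Nr3c1 and of Insr lie together.

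Nr3c1, the glucocorticoid receptor (Entrez 14815), did not separate the groups. Its counts were 1110 in Pax5-/- sample 1, 1200 in sample 2 and 1104 for the wild type, or 171, 176 and 172 CPM. The wild type lay between the Pax5-/- samples. The log2 fold change was 0.01 with an unadjusted 95% interval of -0.33 to 0.36 (adjusted p = 0.948), so with these 3 samples a difference beyond that interval was not seen and a smaller difference cannot be judged.

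Of 15 tested partners of the receptor (chaperones, coactivators and corepressors, and enzymes of the hormone), 1 rose, 2 fell and 12 were not called, that is 20% called against 18.1% of all tested genes, with a median log2 fold change of -0.13 against 0.01 over all tested genes. Hsd11b1, the enzyme that regenerates active glucocorticoid in cells, rose from 16 counts to 93 and 150 (log2 fold change 2.86, SE 0.45), a call lost with limma-voom (adjusted p = 0.061). Ncoa1, a coactivator of nuclear receptors, fell from 321 counts to 104 and 147 (log2 fold change -1.41, SE 0.23). Hspa8, a chaperone that helps fold the receptor, had 314 and 330 counts against 8089 (log2 fold change -4.70, SE 0.11). That value is uncertain because Hspa8 has processed copies in the genome and the treatment of shared reads is not stated.

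Genes that glucocorticoids are known to induce went in both directions. Of 14 tested, 3 rose, 3 fell and 8 were not called, that is 42.9% called against 18.1% of all tested genes, with a median log2 fold change of 0.04. Zbtb16, which encodes PLZF, was at 54 and 137 counts in Pax5-/- against 0. Pooled over the 2 Pax5-/- samples, it was at least 30.7-fold higher against 3 wild-type counts. Errfi1, a feedback inhibitor of growth factor receptors, rose from 13 counts to 51 and 57 (log2 fold change 1.99, SE 0.38). Sgk1, a kinase related to AKT, fell from 241 counts to 55 and 72 (log2 fold change -1.98, SE 0.22), and Ddit4, which inhibits mTORC1, from 335 to 94 and 155 (log2 fold change -1.48, SE 0.29). Tsc22d3, which encodes GILZ and is a standard readout of the receptor, was not called, with 416 and 535 counts against 362 (log2 fold change 0.34, SE 0.19, adjusted p = 0.287). Fkbp5, another standard readout, was not called at 1262 and 1483 counts against 883 (log2 fold change 0.58, SE 0.15, adjusted p = 0.0662), and passed with robust dispersion estimation. These genes were named after their values were seen. The call of Zbtb16 was lost with limma-voom, that of Errfi1 with limma-voom and DESeq2, and that of Ddit4 with library size alone and with a filter of 10 counts in every sample. When a biological coefficient of variation (BCV) of 0.4 was assumed, Ncoa1, Errfi1 and Ddit4 were not called.

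Txnip, the thioredoxin-interacting protein that also draws glucose transporters from the surface (Entrez 56338; chromosome 3, 96557957 to 96561857, mm10), was slightly lower in both Pax5-/- samples but not called. Its counts were 628 and 634 against 732, or 96.9, 93.1 and 114 CPM. The samples did not overlap, and the log2 fold change was -0.26 (95% interval -0.65 to 0.12, adjusted p = 0.262). Exons of Txnip share 606 bases with the antisense gene Gm15441, which had 0, 1 and 2 counts.

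In the list of Txnip relatives and thioredoxin genes, 2 of 12 tested genes rose, 1 fell and 9 were not called (25% called, against 18.1% of all tested genes; median log2 fold change -0.28). Arrb1 and Arrb2, the beta-arrestins, rose from 108 counts to 368 and 487 (log2 fold change 1.93, SE 0.22) and from 279 to 493 and 548 (log2 fold change 0.85, SE 0.15). Nlrp3, the inflammasome sensor that Txnip binds, fell from 231 counts to 106 and 84 (log2 fold change -1.33, SE 0.24). Mlxip, which encodes MondoA, the glucose-sensing activator of Txnip, was not called at 683 and 699 counts against 1009 (log2 fold change -0.60, SE 0.13, adjusted p = 0.054). It was named after its value was seen and passed with RLE scaling, limma-voom and robust dispersion estimation. Arrb2 was not called by the likelihood ratio test, and none of these 3 calls held at an assumed BCV of 0.4.

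Cnr2, the cannabinoid receptor CB2 of immune cells (Entrez 12802; chromosome 4, 135895189 to 135920219), had the lowest fold change of the 10 genes and was not called. Its counts were 28 and 35 in Pax5-/- against 72, or 4.32, 5.14 and 11.2 CPM. Both Pax5-/- samples lay below the wild type. The log2 fold change was -1.24 (SE 0.30, 95% interval -2.07 to -0.41, adjusted p = 0.0639). It passed the threshold in the likelihood ratio test and with robust dispersion estimation (adjusted p = 0.00953 and 0.0457), and its adjusted p ranged up to 0.485 over the other alternatives.

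Among 8 tested genes that make, degrade or relay cannabinoid signals, 1 rose, 1 fell and 6 were not called (25% called, against 18.1% of all tested genes; median log2 fold change -0.27). Mgll, which breaks down the cannabinoid 2-arachidonoylglycerol, fell from 61 counts to 4 and 11 (log2 fold change -3.06, SE 0.56). Its log2 fold change was -2.56 without Pax5-/- sample 1 and -3.95 without sample 2. Plcb2, a phospholipase that acts below G proteins, rose from 152 to 536 and 613 (log2 fold change 1.86, SE 0.17), a call lost at an assumed BCV of 0.4. Cnr1, the receptor typical of neurons, was at 0 in every sample.

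Stk11 and Prkaa1, the LKB1 kinase and the AMPK subunit it activates, were both somewhat higher in Pax5-/- and neither was called. Stk11 (Entrez 20869; chromosome 10, 80115767 to 80130679) had 622 and 646 counts against 510, or 96.0, 94.9 and 79.5 CPM. Its log2 fold change was 0.26 (95% interval -0.13 to 0.66, adjusted p = 0.272), and its exons share 232 bases with Cbarp on the other strand, a gene with 91, 81 and 89 counts. Prkaa1 (Entrez 105787; chromosome 15, 5143861 to 5181899) had 491 and 516 counts against 338, or 75.8, 75.8 and 52.7 CPM. The Pax5-/- samples lay together above the wild type, with a log2 fold change of 0.52 (SE 0.15, 95% interval 0.12 to 0.93, adjusted p = 0.0858). Prkaa1 made up 98.9% and 96.2% of the RPKM of the catalytic AMPK subunits in Pax5-/- against 89.8% for the wild type. The rest was Prkaa2, at 10 and 36 counts against 68.

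None of the 11 other tested genes of the LKB1 complex and AMPK was called by edgeR's quasi-likelihood test, against 18.1% of all tested genes, and 3 (27.3%) had an unadjusted p under 0.05, against 36%. DESeq2 and limma-voom called 0, the likelihood ratio test 1, the fit without a filter 1, RLE scaling 2 and robust dispersion estimation 3. The smallest p belonged to Prkag2, a regulatory AMPK subunit, at 219 and 270 counts against 128 (log2 fold change 0.88, SE 0.19, adjusted p = 0.0501). Camkk2, the calcium-dependent kinase that also activates AMPK, followed at 658 and 718 against 425 (log2 fold change 0.64, SE 0.15, adjusted p = 0.0568).

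Of 9 tested AMPK-related kinases that LKB1 also activates, 3 fell, 0 rose and 6 were not called (33.3% called, against 18.1% of all tested genes; median log2 fold change -0.14). Nuak1 fell from 375 counts to 18 and 37 (log2 fold change -3.82, SE 0.36), Nuak2 from 167 to 11 and 18 (log2 fold change -3.57, SE 0.33) and Sik1, a salt-inducible kinase, from 295 to 41 and 60 (log2 fold change -2.60, SE 0.25). These 3 were called under each of the 9 alternatives run with a test. Downstream of AMPK, in a list of mTORC1 control, 1 of 17 tested genes rose, 1 fell and 15 were not called (11.8% called, against 18.1% of all tested genes; median log2 fold change 0.14). Fnip2, a partner of folliculin that binds AMPK, rose from 4 counts to 124 and 185 (log2 fold change 5.17, SE 0.50). Mtor, the kinase of mTORC1, fell from 1500 counts to 565 and 547 (log2 fold change -1.48, SE 0.14), a call lost at an assumed BCV of 0.4.

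**Figure D3:**
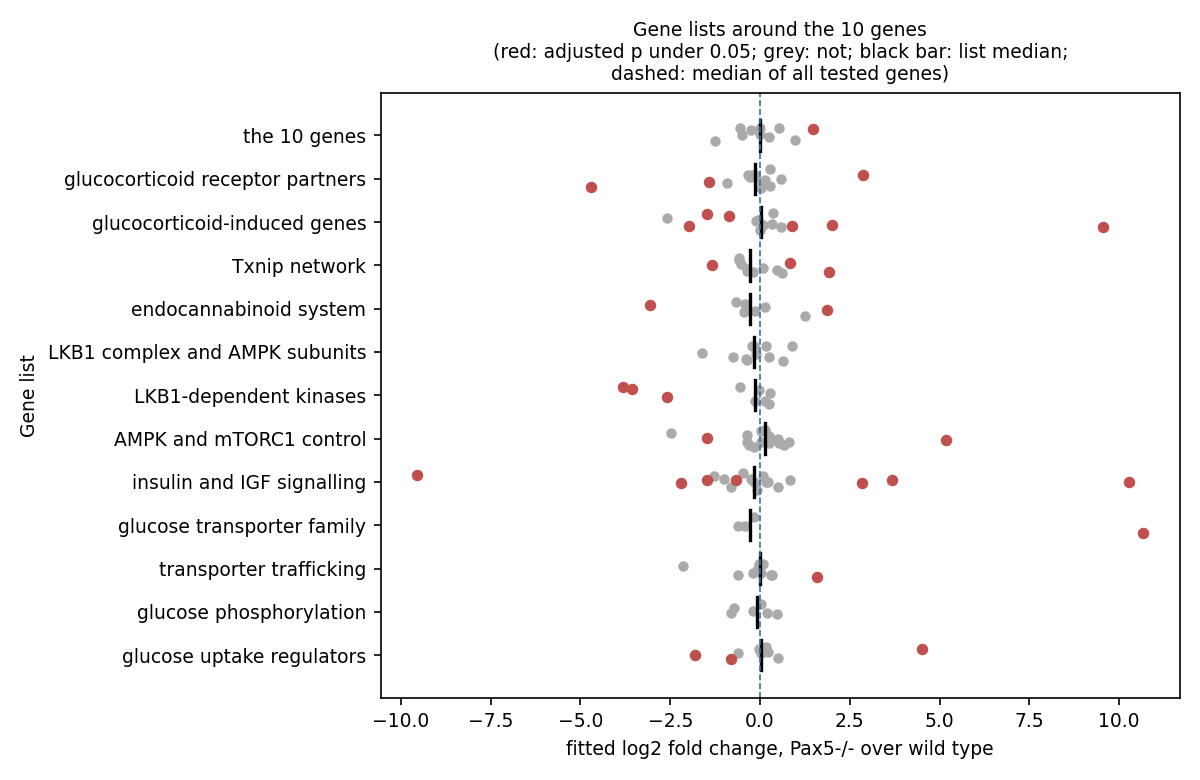
Fitted log2 fold changes of the tested genes in each list, Pax5-/- over wild type, with called genes in red, others in grey, list medians as black bars and the median of all tested genes dashed. List medians lie between -0.29 and 0.14, and the outermost points (Irs2, Slc5a9 and Zbtb16, each with 0 counts in a group, and Igf2) have fitted values that depend on the prior count.

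Insr, the insulin receptor (Entrez 16337; chromosome 8, 3150922 to 3279649), was at 147 and 175 counts in Pax5-/- against 154, or 22.7, 25.7 and 24.0 CPM. The wild type lay between the Pax5-/- samples. The log2 fold change was 0.01 with an interval of -0.51 to 0.53 (adjusted p = 0.971).

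Genes that act with the receptor included large differences in both directions. Of 19 other tested genes of insulin and IGF signalling, 3 rose, 4 fell and 12 were not called (36.8% called, against 18.1% of all tested genes; median log2 fold change -0.16). Irs2, the adaptor that couples the insulin receptor to PI3K, was at 0 counts in both Pax5-/- samples against 91, at least 62.9-fold lower against 3 counts over the group. Irs1, its relative, had 32 and 65 counts against 52 and was not called (log2 fold change -0.16, SE 0.48, adjusted p = 0.839). Igf2, an imprinted fetal growth factor that can signal through Insr and Igf1r, had 2930 and 5095 counts against 3. Its ratio was 1291 (95% counting interval 442 to 6260), and its call was lost with limma-voom (adjusted p = 0.0511). Igf1r fell from 268 counts to 38 and 83 (log2 fold change -2.20, SE 0.43), a call lost with library size alone.

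Among other genes of the list, Sh2b2, which encodes the receptor-binding adaptor APS, rose from 10 counts to 128 and 138 (log2 fold change 3.67, SE 0.30). Grb10, an imprinted inhibitor of insulin signalling, rose from 38 counts to 179 and 388 (log2 fold change 2.83, SE 0.58; 2.22 without Pax5-/- sample 2), a call lost with library size alone, with 10 counts required in every sample, with limma-voom and with robust dispersion estimation. Foxo1, a target of AKT, fell from 1948 counts to 652 and 800 (log2 fold change -1.48, SE 0.15), and Akt2 from 432 to 265 and 295 (log2 fold change -0.68, SE 0.14). Foxo1 was not called at an assumed BCV of 0.4, and Akt2 was not called in 6 of 9 alternatives. Irs1, Igf1r, Foxo1 and Akt2 were named after their values were seen. In GENCODE, Igf2 shares 3596 exonic bases on the same strand with the protein-coding gene Gm49394, whose counts were not analysed here, and 98 with the antisense gene Igf2os, which had 40, 45 and 0 counts. How reads of these genes were divided is not stated, so the Igf2 counts are uncertain.

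**Figure D4:**
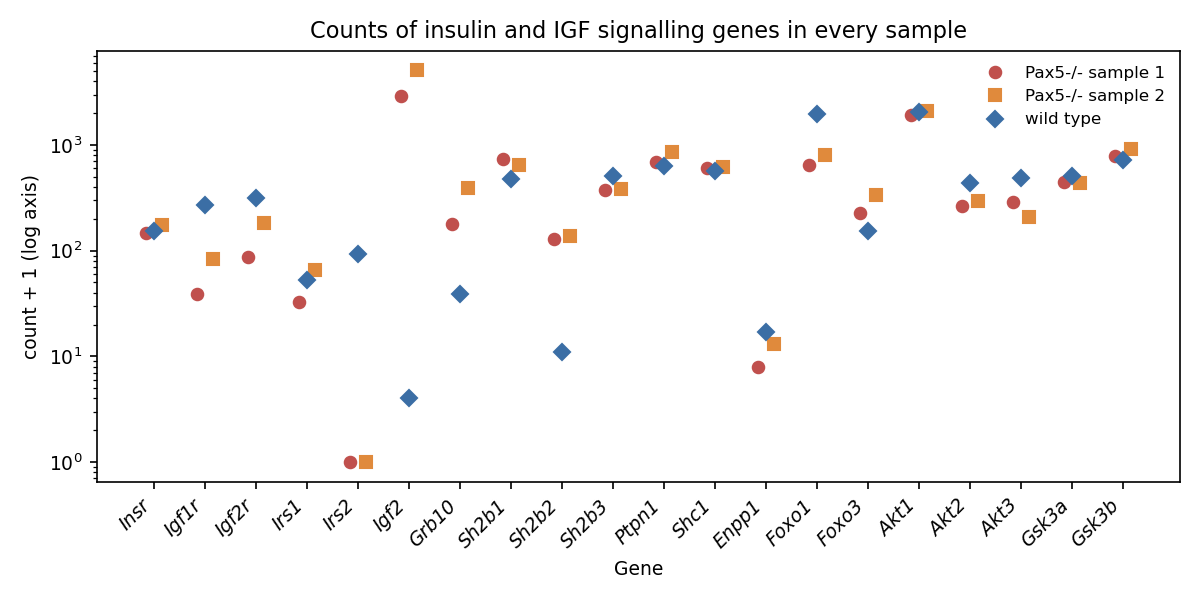
Counts plus 1 on a log axis for Insr and the 19 other tested genes of insulin and IGF signalling, 1 point per sample; counts are to be compared within a gene, since lengths differ. The 3 points of Insr lie together at 147 to 175 counts, whereas Irs2 is at 0 in both Pax5-/- samples and Igf2 at 3 counts in the wild type.

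The 3 glucose transporters among the 10 genes did not move together. Slc2a1, which encodes GLUT1, the main transporter of dividing lymphocytes (Entrez 20525; chromosome 4, 119108745 to 119137330), had 139 and 148 counts against 197, or 21.5, 21.7 and 30.7 CPM. Both Pax5-/- samples lay below the wild type, but the difference was not called (log2 fold change -0.51, SE 0.17, 95% interval -0.97 to -0.05, adjusted p = 0.115). Slc2a3, which encodes the high-affinity transporter GLUT3 (Entrez 20527; chromosome 6, 122727809 to 122802363), had 229 and 237 counts against 81, or 35.3, 34.8 and 12.6 CPM. The Pax5-/- samples lay close together and above the wild type, and Slc2a3 rose 2.77-fold (log2 fold change 1.47, SE 0.18, 95% interval 0.99 to 1.96, adjusted p = 0.0143). The call held in 8 of 9 alternatives and was lost at an assumed BCV of 0.4 (adjusted p = 0.355, against 2.68e-05 at the lowest). Myeloid and T cells also express GLUT3; the summed myeloid markers were 29.9 and 50.2 CPM in Pax5-/- against 90.5, or against 31.7 without S100a8, S100a9 and Ngp. The T and NK sum was 22.4 and 32.9 against 5.30 CPM, or 4.63 and 2.20 against 4.52 without Nkg7. The genes left out of these sums were chosen after their values were seen, because they carried the difference. The part of myeloid and T cells in the Slc2a3 result was not tested.

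Slc2a6, which encodes the lysosomal transporter GLUT6 (Entrez 227659; chromosome 2, 27021363 to 27028000), had the fewest counts, 25 and 24 against 12, or 3.86, 3.53 and 1.87 CPM. Both Pax5-/- samples lay above the wild type, and the log2 fold change of 0.97 had an interval of -0.30 to 2.25 (adjusted p = 0.222). The interval includes 0 and changes well above the fitted value.

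Within the transporter family, the share of each gene differed more than the sum did. The 12 Slc2a genes in the files, 7 of them above 0, summed to 24.2 and 23.7 RPKM in Pax5-/- and 22.4 RPKM in the wild type. Slc2a3 made up 36.8% and 37.1% of that sum in Pax5-/- against 14.2%. The share of Slc2a1 was 34.4% and 35.7% against 53.2%, and that of Slc2a6 was 7.45% and 6.97% against 3.91%. The ratio of Slc2a3 to Slc2a1 was 1.07 and 1.04 in Pax5-/- and 0.267 in the wild type. These shares are descriptions with no test, and how much sugar the cells took up was not measured.

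Few of the other sugar transporters listed passed the filter. Of 13 further transporters listed, 7 had 0 counts in every sample, among them Slc2a4, the insulin-responsive GLUT4 of muscle and fat. Only 4 passed the filter, of which 1 rose (25%, against 18.1% of all tested genes called). That was Slc5a9, a sodium-coupled sugar transporter, with 176 and 238 counts against 0. Pooled over the 2 Pax5-/- samples, it was at least 66.6-fold higher against 3 wild-type counts. Slc2a8, Slc2a9 and Slc50a1 were not called, with log2 fold changes of -0.16, -0.60 and -0.41. Among 10 tested genes that move transporters to and from the surface, Tbc1d4, the AKT substrate AS160, rose from 127 counts to 321 and 477 (log2 fold change 1.59, SE 0.28), and 9 were not called (10% called, against 18.1% of all tested genes; median log2 fold change 0.00). The call of Tbc1d4 was lost with limma-voom and at an assumed BCV of 0.4.

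Hk2, the hexokinase induced in growing and malignant cells (Entrez 15277; chromosome 6, 82725025 to 82774454), was at 260 and 236 counts in Pax5-/- against 352, or 40.1, 34.7 and 54.9 CPM. Both Pax5-/- samples lay below the wild type, and the difference was not called (log2 fold change -0.55, SE 0.16, 95% interval -0.999 to -0.109, adjusted p = 0.0918). Hk2 made up 16.1% and 13.0% of the summed hexokinase RPKM in Pax5-/- against 22.05%; the sum was 45.2 and 48.2 against 45.2 RPKM. Almost all of the rest was Hk1, the widely expressed hexokinase, at 1108 and 1285 counts against 1015 (log2 fold change 0.18, SE 0.14, adjusted p = 0.408). Of 6 other tested genes of glucose phosphorylation, 0 were called by edgeR's quasi-likelihood test, by DESeq2 or by limma-voom, against 18.1% of all tested genes in the first, and 3 (50%) had an unadjusted p under 0.05, against 36%. The smallest p among them belonged to Adpgk, an ADP-dependent glucokinase (169 and 233 counts against 321; log2 fold change -0.73, SE 0.21, adjusted p = 0.0908). Next was Slc37a4, the glucose-6-phosphate transporter of the endoplasmic reticulum (57 and 63 counts against 101; log2 fold change -0.80, SE 0.24, adjusted p = 0.0922).

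Over the 12 lists of surrounding genes, 133 of 170 genes were tested and 31 (23.3%) were called, 14 higher and 17 lower, against 18.1% called of all 11783 tested genes. Without a stated strand setting, reads of antisense pairs such as Txnip and Gm15441 cannot be separated.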

How the data were processed

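Total RNA of 3 pro-B cell samples was sequenced. The deposited values are raw whole-number counts per gene, which the authors obtained with featureCounts on the mm10 build, per the submitters' processing notes. For the aligner, annotation and strand setting the entry is "not given in the sources used here". The authors also listed a gene length in bases, per the file headers, used here for RPKM only. The table of the whole series equalled the sample files for all 27179 genes.

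Symbols and coordinates came from RefSeq (GRCm38.p6) by Entrez number, and 25275 of 27179 numbers (93%) matched. The test was edgeR 4.0.16 in R 4.3.3: filterByExpr (minimum count 10), TMM scaling, glmQLFit and glmQLFTest of genotype over all 3 samples, and Benjamini-Hochberg adjustment over 11783 genes at 0.05. There was 1 residual degree of freedom, with 3.15 prior degrees of freedom. SE is the log2 fold change over the root of F, and 95% intervals use it with both degrees of freedom summed. Means ± SD are over 2 Pax5-/- samples. Alternatives used DESeq2 1.42.0, limma 3.58.1 (voom), other scalings, filters and dispersions. The fits were tested on simulated data. All recovered the simulated fold changes. However, the fit without a filter and that at an assumed biological coefficient of variation of 0.4 called none of the changed genes. The simulation used a lower dispersion than the common value of the data, 0.041. On the data these fits called 2419 and 1206 genes, so their lack of calls in the simulation cannot be carried over to the data.

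The 10 genes and all lists were chosen with earlier results of these data known, so no test is adjusted over a list alone. Named in each list were up to 4 called genes with a mean of at least 1 CPM, by size of fold change, or the 2 smallest p where none was called. Some cell type markers are not reported here.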

Additional observations from a re-analysis of the deposited data

How the results depend on the processing

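The count of all called genes was 2130. It was 1353 when 10 counts were required in every sample, which removes genes absent from a group, and 1206 with a biological coefficient of variation of 0.4 assumed; under the other 7 alternatives it stayed within 1.5 times. Of the 10 genes, 1 was called (Slc2a3). The likelihood ratio test called 2 and robust dispersion estimation 2, with Cnr2 added in each, and an assumed biological coefficient of variation of 0.4 called 0. The same assumption lowered the calls over the surrounding lists from 31 to 17. With limma-voom those calls were 7 higher and 17 lower. No alternative with a test changed the sign of any of the 10 fold changes. Leaving out a Pax5-/- sample left 1 against 1 and no test; the fold change of Nr3c1 was then 0.03 or -0.01 and that of Insr 0.10 or -0.08, while the other 8 genes kept their sign. No paired analysis was possible because no label pairs a Pax5-/- sample with the wild type. Of the 10 genes, 3 held the same rank in both genotypes per length and 4 without length. Counting error is widest, relative to the level, for Slc2a6 at 12 to 25 counts.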

Other observations

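Among 9 tested regulators of glucose uptake outside the 10 genes, 1 rose, 2 fell and 6 were not called (33.3% called, against 18.1% of all tested genes; median log2 fold change 0.02). Hif1a, a hypoxia-inducible factor that activates genes of glucose uptake, fell from 1417 counts to 788 and 880 (log2 fold change -0.82, SE 0.13, adjusted p = 0.0261 in edgeR's quasi-likelihood test). Egln3, a prolyl hydroxylase that marks that factor for degradation, rose from 18 counts to 331 and 534 (log2 fold change 4.52, SE 0.42, adjusted p = 0.00873). Rragd, a GTPase that recruits mTORC1 to lysosomes, fell from 190 counts to 41 and 72 (log2 fold change -1.80, SE 0.34, adjusted p = 0.0379). Myc, a known activator of glucose uptake genes, was not called at 1982 and 2382 counts against 2068 (log2 fold change 0.02, SE 0.14, adjusted p = 0.916), and was named after its value was seen. The call of Hif1a was lost in the likelihood ratio test and that of Rragd with library size alone; both were lost at an assumed biological coefficient of variation of 0.4.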
